A study of Homo sapiens with 12 samples.

Results

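MOLM-14 is a human acute myeloid leukaemia cell line with monocytic features that carries a KMT2A-MLLT3 fusion and an internal tandem duplication of FLT3. Its response to a pair of antidiabetic drugs was read in 3 of the 12 libraries of the study, chosen by their cell line label. The groups were MOLM-14 with pioglitazone at 10 µM, MOLM-14 with darglitazone at 10 µM and MOLM-14 with DMSO, the solvent control, each exposed for 12 h and each measured in 1 library. The other 9 libraries hold the same treatments in 3 further leukaemia lines, KG-1a, MV4-11 and OCI-AML3. RNA was total RNA, with ribosomal RNA removed and strand kept. All groups share the genotype of the line, which is 1 established line, and none has a repeat library. Differences within MOLM-14 therefore have no replicate check and no test, and the 95% intervals given with them cover counting error only.

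Total estimated counts were 23.13 M with pioglitazone, 9.42 M with darglitazone and 30.2 M with DMSO. A count of 3 per library, taken as the lowest readable level, equals 0.13, 0.318 and 0.0993 CPM (counts scaled to library size) in that order of libraries, so low genes are least certain with darglitazone. The share of counts in protein-coding genes was 83.0% with pioglitazone, 82.4% with darglitazone and 83.4% with DMSO. All 12 markers listed for the line, among them FLT3, CD33, HOXA9, MEIS1, SPI1 and LYZ, stood at a mean of 5 CPM or more. The 5 genes listed as low in this line, CD34, HOXB8, HOXB9, PROM1 and GATA1, summed to 1.03, 2.03 and 0.463 CPM. Of 10 T cell markers 0 reached 5 CPM, and their sums were 2.10, 2.24 and 2.64 CPM. Of 9 B cell markers PAX5 and BANK1 did, PAX5 at 56.8, 65.2 and 63.4 CPM with pioglitazone, darglitazone and DMSO, while MS4A1 did not. Genes of the other lines, chosen as at most 5% of their level in the MOLM-14 DMSO library, stood at medians of 0.338% to 0.849% of that level in the drug libraries and of 0.292% to 0.919% in the DMSO library.

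Pioglitazone and darglitazone are thiazolidinediones. They bind PPARγ, a nuclear receptor that pairs with RXR on DNA and switches on genes of fatty acid uptake, storage and oxidation. The class is also known to bind mitochondrial proteins, the pyruvate carrier and mitoNEET among them. The drugs share the thiazolidinedione ring on a benzyl group. Pioglitazone carries an ethylpyridine on an ethoxy linker, and darglitazone a phenyl-methyl-oxazole on a linker with a ketone. Their readouts were compared at the same dose and time.

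Most genes lay close to their DMSO level with either drug. Among 10222 genes with a mean of at least 5 CPM over the 3 MOLM-14 libraries, 142 (1.39%) were past 1.5-fold with pioglitazone, 66 higher (0.646%) and 76 lower (0.743%). With darglitazone 254 genes (2.48%) were past 1.5-fold, 141 higher (1.38%) and 113 lower (1.11%). The libraries differ in depth, and after thinning to that of the darglitazone library the counts were 256 with pioglitazone and 335 with darglitazone. A change of 2-fold was reached by 25 genes with pioglitazone and by 31 with darglitazone. The middle 95% of log2 ratios ran from -0.38 to 0.41 with pioglitazone and from -0.47 to 0.49 with darglitazone. Genes past 1.5-fold were mostly low in level: 127 of 142 and 224 of 254 lay below 20 CPM. Among 6680 genes at 20 CPM or more, 15 (0.225%) were past 1.5-fold with pioglitazone and 30 (0.449%) with darglitazone. Both drug ratios use the same DMSO library, and 22 genes were higher and 13 lower past 1.5-fold with both.

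**Figure D1:**
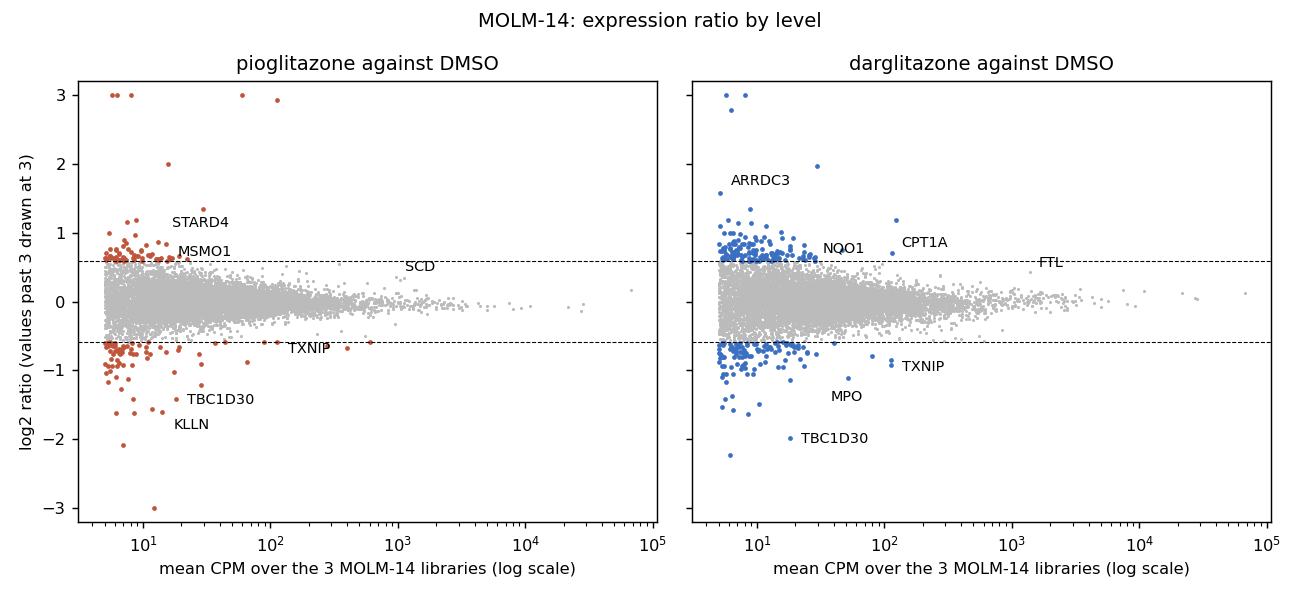
Log2 ratio to DMSO in MOLM-14 against the mean CPM over its 3 libraries (log axis), for pioglitazone (left) and darglitazone (right); each point is 1 gene, coloured points are past 1.5-fold (dashed lines), and ratios beyond 3 or -3 are drawn there. The coloured points gather at low levels, and TBC1D30 and TXNIP lie below the lower line with both drugs.

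The receptors themselves showed no ratio past 1.5-fold. PPARG had 9, 5 and 12 counts with pioglitazone, darglitazone and DMSO, which is 0.385, 0.533 and 0.397 CPM. Too few reads thus covered the receptor gene to show a difference at this depth. PPARD, the widely expressed relative, had 15.2, 16.7 and 19.8 CPM, and PPARA had 12.9, 16.1 and 15.9 CPM. RXRA, the shared partner, was far higher at 224, 199 and 242 CPM. The highest ratio among 12 measured receptor and coregulator genes was that of the coactivator NCOA1 with pioglitazone, at 18.6 CPM against 13.2 CPM with DMSO (log2 ratio 0.49).

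Most measured PPAR targets stood slightly above their DMSO level. Of 45 listed targets 24 reached 5 CPM, and 9 had no count in any MOLM-14 library, FABP4 and PDK4 among them. The median log2 ratio was 0.10 with pioglitazone (17 of 24 above 0) and 0.09 with darglitazone (18 of 24 above 0). Of all genes 49.2% and 50% lay above 0. TXNIP, also on this list, was its lowest member and lower past 1.5-fold with both drugs (-0.59 and -0.85). CPT1A, which commits fatty acids to mitochondrial oxidation, had 108 CPM with pioglitazone, 146 CPM with darglitazone and 89.4 CPM with DMSO. Its darglitazone library was the highest, with a log2 ratio to DMSO of 0.71 (interval 0.62 to 0.80), and pioglitazone lay between at 0.27 (0.19 to 0.35). The same order held for SLC25A20, the carnitine carrier, at 11.2, 14.3 and 10.0 CPM with pioglitazone, darglitazone and DMSO, and for ACADVL, the very-long-chain acyl-CoA dehydrogenase, at 263, 314 and 243 CPM. PLIN2, a lipid droplet coat protein, had 18.1, 22.6 and 17.2 CPM. The enzymes HADHA and ACADM did not follow them: HADHA had 207, 217 and 215 CPM, and ACADM 36, 40.4 and 40.9 CPM. Other enzymes of lipid handling, named after their values were seen, were past 1.5-fold with darglitazone: HSDL2, a peroxisomal dehydrogenase-like protein, had 23.6, 32.5 and 20.3 CPM, and GPCPD1, a glycerophosphocholine phosphodiesterase, 25.1, 31.1 and 19.8 CPM. The genes of the pyruvate carrier and mitoNEET family stayed within 0.28 on the log2 scale with both drugs, with CISD1, which encodes mitoNEET, at 36.2, 37.9 and 31.1 CPM.

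**Figure D2:**
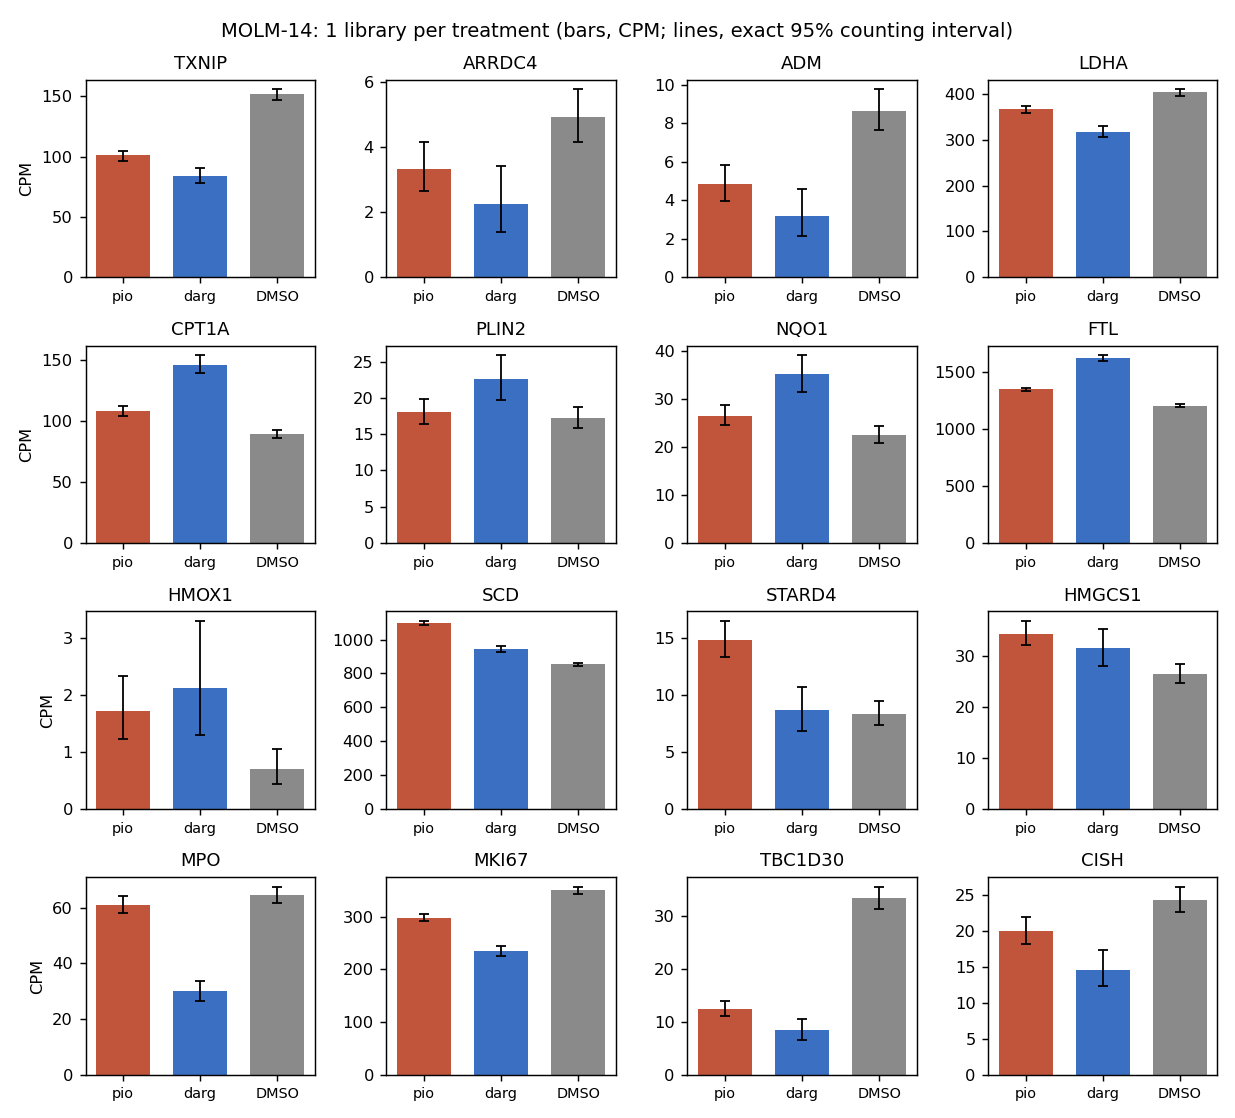
CPM of 16 named genes in the pioglitazone, darglitazone and DMSO libraries of MOLM-14 (bars from 0; 1 library per bar), with the exact 95% counting interval of each library. TXNIP, MKI67 and TBC1D30 are highest in the DMSO bar, CPT1A, NQO1 and FTL in the darglitazone bar, and SCD and STARD4 in the pioglitazone bar.

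TXNIP was lower with both drugs. It encodes an arrestin-like protein that binds thioredoxin and restrains glucose uptake, and its transcription is known to follow glucose through MLXIP-type factors. TXNIP (chromosome 1, 145992435 to 145996600, minus strand) had 101 CPM with pioglitazone, 84.2 CPM with darglitazone and 152 CPM with DMSO, from 2359, 789 and 4588 counts. Both drug libraries lay below DMSO, with log2 ratios of -0.59 (interval -0.66 to -0.52) with pioglitazone and -0.85 (-0.96 to -0.74) with darglitazone. Its main transcript, with 83.4% of the gene's counts, had 82.2, 74.5 and 127 CPM. ARRDC4, the closest relative of TXNIP and also responsive to glucose, had 3.34, 2.24 and 4.92 CPM, below the level of 5 CPM used for counting genes, with ratios of -0.55 (-0.98 to -0.16) and -1.10 (-1.87 to -0.47). ARRDC3, another arrestin-domain gene, went the other way: it had 4.23, 8.43 and 2.74 CPM, and its darglitazone ratio was 1.58 (1.16 to 2.08).

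The promoters of TXNIP and ARRDC4 are shown because these arrestin genes were lower with both drugs and are textbook targets of the glucose-sensing factors. The sequences are RefSeq promoters of GRCh38.p14, from 250 bases before to 50 bases after the gene's start: chr1:145996530-145996829 on the minus strand for TXNIP and chr15:97960453-97960752 on the plus strand for ARRDC4. Capitals mark, in TXNIP, a carbohydrate response element, searched as 2 copies of CACGNG with 5 bases between them, and in ARRDC4 the E-box CACGTG, both searched on both strands. A CACGTG also matches a single CACGNG.
TXNIP: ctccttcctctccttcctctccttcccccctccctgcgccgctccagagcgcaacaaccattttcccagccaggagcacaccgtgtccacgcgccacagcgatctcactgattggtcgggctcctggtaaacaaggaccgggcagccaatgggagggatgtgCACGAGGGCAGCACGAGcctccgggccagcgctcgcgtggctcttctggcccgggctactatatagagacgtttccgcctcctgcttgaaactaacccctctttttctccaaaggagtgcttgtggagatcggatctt
ARRDC4: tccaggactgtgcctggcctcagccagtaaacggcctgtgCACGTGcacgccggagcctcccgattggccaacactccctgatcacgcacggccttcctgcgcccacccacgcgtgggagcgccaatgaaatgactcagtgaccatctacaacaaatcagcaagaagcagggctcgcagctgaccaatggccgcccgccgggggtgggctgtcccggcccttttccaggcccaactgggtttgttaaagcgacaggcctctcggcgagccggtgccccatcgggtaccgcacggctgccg

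The longer motif began at -88 from the TXNIP start and occurred in 20 of 35116 RefSeq promoters (0.057%). It was not found in the window of a second RefSeq start of TXNIP, nor in the listed ARRDC4 and ARRDC3 windows. The E-box of ARRDC4 began at -210 and occurred in 7.26% of promoters. These matches describe the sequence and were not set against binding data.

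Glycolysis and hypoxia genes leaned downward with either drug. Of 31 measured members of this list, which holds TXNIP, 24 lay below 0 with pioglitazone and 25 with darglitazone, with a median of -0.11 for each, where all genes had -0.003 and 0.00. ADM, which encodes the vasodilator adrenomedullin and is induced by hypoxia, had 4.83, 3.2 and 8.66 CPM with pioglitazone, darglitazone and DMSO. It was the lowest ratio of the list, -0.83 (-1.17 to -0.52) with pioglitazone and -1.41 (-2.03 to -0.89) with darglitazone. Its main transcript, with 46.9% of the gene's counts, had 3.73, 1.26 and 3.0 CPM, and so was not lower with pioglitazone. A further transcript, with 17.8% of the counts, had 0.0, 0.774 and 2.14 CPM. The glucose transporter genes SLC2A1 and SLC2A3 had 37.1, 36.4 and 44.7 CPM and 68.2, 64.3 and 80.5 CPM. HK2, the inducible hexokinase, had 33.2, 32.9 and 39.4 CPM, and LDHA, which makes lactate, 367, 318 and 404 CPM. All of these were lower in both drug libraries, yet none but ADM and TXNIP was past 1.5-fold. ALDOC, an aldolase, was the member past 1.5-fold upward, with 20.2 CPM in the pioglitazone library, 29.5 CPM in the darglitazone library and 18.7 CPM in the DMSO library. KDM3A, a hypoxia-induced histone demethylase outside the list that was named after its values were seen, had 25.1, 18.5 and 30.8 CPM.

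Sterol genes stood higher mainly with pioglitazone. The enzymes of cholesterol synthesis are controlled together by SREBP2, and those of fatty acid synthesis by SREBP1. Of 23 measured cholesterol genes 20 lay above 0 with pioglitazone (median 0.21) and 16 with darglitazone (median 0.05). STARD4, which carries cholesterol between membranes, had 14.8 CPM with pioglitazone, 8.64 CPM with darglitazone and 8.36 CPM with DMSO. Only its pioglitazone library stood apart, with a ratio of 0.82 (0.59 to 1.07), against 0.05 (-0.33 to 0.41) with darglitazone. MSMO1, a sterol demethylase, had 13.6, 13.4 and 8.40 CPM, higher with both drugs (0.68 and 0.67). Its counts did not move in 1 transcript: the main one had 7.60, 13.2 and 7.50 CPM, and a second one 5.72 CPM with pioglitazone, close to 0 with darglitazone and 0.627 CPM with DMSO. HMGCS1, the first committed enzyme, had 34.3, 31.4 and 26.4 CPM. IDI1, CYP51A1 and FDFT1 had pioglitazone ratios of 0.33, 0.33 and 0.30 and darglitazone ratios of -0.03, 0.04 and 0.25. The feedback gene INSIG1 had 132, 115 and 107 CPM. The sequence TCACNCCAC, a spelling of the sterol response element that 1.13% of promoters hold, was not found in the promoter windows of MSMO1, STARD4, HMGCS1, SCD and INSIG1. Other spellings and sites outside these windows were not searched, so this does not show that the genes lack such an element.

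Among fatty acid genes SCD, the desaturase that makes monounsaturated fats, had 1098 CPM with pioglitazone, 945 CPM with darglitazone and 854 CPM with DMSO. FADS2, a desaturase of polyunsaturated fats, had 197, 160 and 145 CPM, and FASN, the fatty acid synthase gene, 833, 763 and 729 CPM. The pioglitazone library was the highest for these, with ratios of 0.36 for SCD, 0.45 for FADS2 and 0.19 for FASN, against 0.15, 0.14 and 0.07 with darglitazone. Of 15 measured members 13 and 11 lay above 0, with medians of 0.11 and 0.14. ME1, the malic enzyme that supplies NADPH, was the member past 1.5-fold, with darglitazone only, at 5.43, 7.25 and 4.46 CPM. The 5 measured genes of LXR and sterol efflux lay between 0.09 and 0.41 with darglitazone and between -0.21 and 0.27 with pioglitazone. Among them the cholesterol exporter ABCA1 had 10.9, 15.6 and 12.3 CPM.

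**Figure D3:**
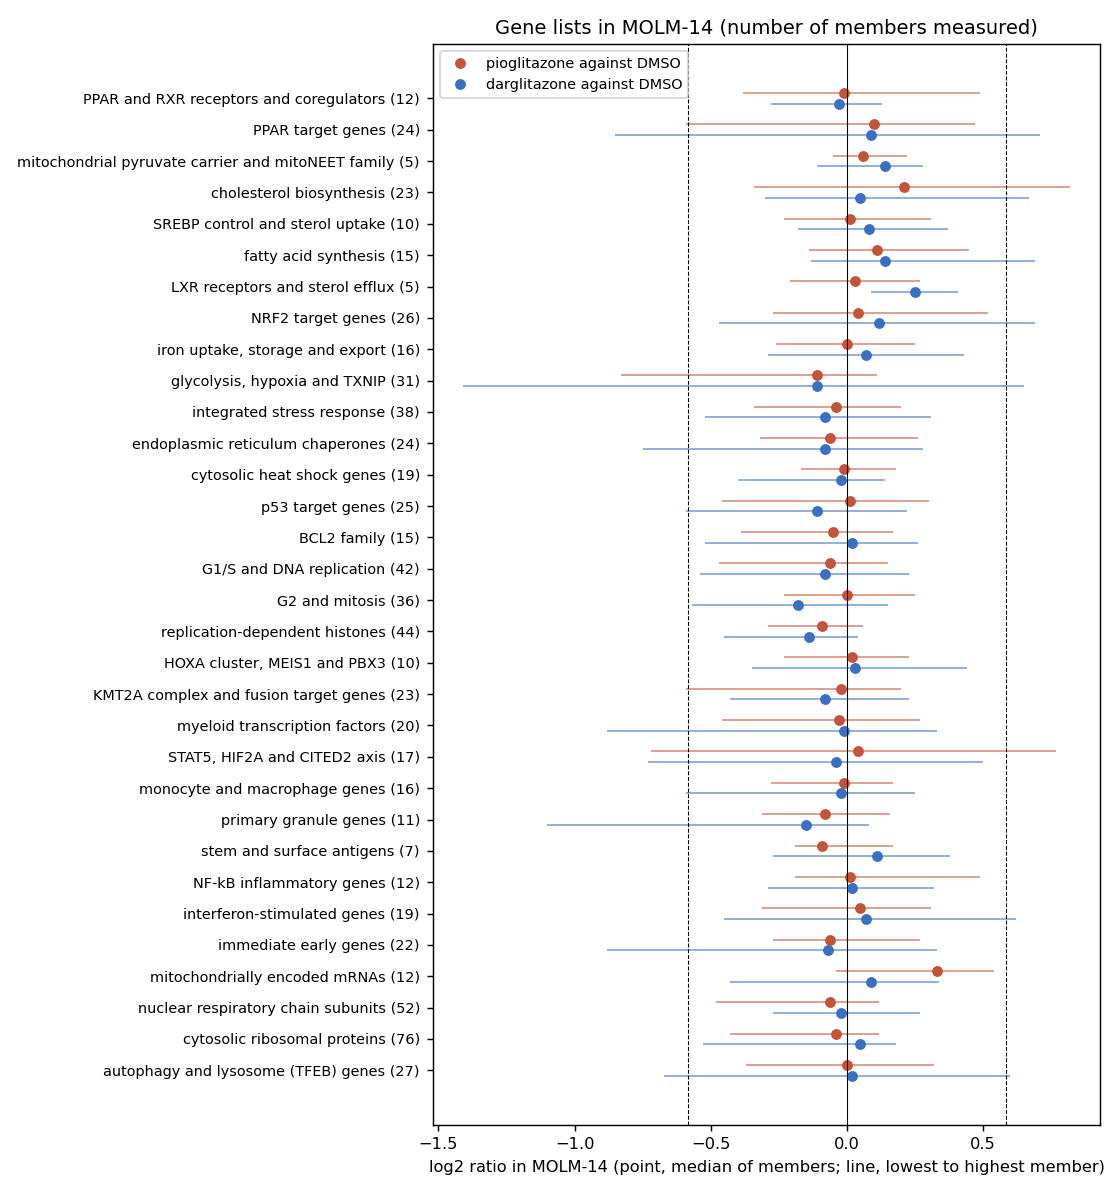
Median log2 ratio to DMSO (points) and the lowest and highest member (lines) of each gene list with at least 5 measured members in MOLM-14, for pioglitazone and darglitazone; dashed lines mark 1.5-fold and the number of measured members is in brackets. Every median lies within 1.5-fold, the highest being mitochondrially encoded mRNAs with pioglitazone at 0.33 and the lowest G2 and mitosis genes with darglitazone at -0.18.

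Genes of redox defence stood higher mostly with darglitazone. NRF2, the protein of the NFE2L2 gene, switches on genes that conjugate, reduce and export reactive compounds and that store iron. Of 26 measured NRF2 targets 15 lay above 0 with pioglitazone (median 0.04) and 20 with darglitazone (median 0.12). Higher past 1.5-fold were 0 with pioglitazone and 2 with darglitazone, where the shares of all genes were 0.646% and 1.38%. NQO1, a quinone reductase, had 26.5 CPM with pioglitazone, 35.1 CPM with darglitazone and 22.5 CPM with DMSO. Its darglitazone ratio was 0.64 (0.45 to 0.83) and its pioglitazone ratio 0.24 (0.08 to 0.40). TXNRD1, thioredoxin reductase, had 274, 306 and 233 CPM. FTL, the ferritin light chain, had 1349, 1622 and 1204 CPM, and FTH1, its heavy chain, 78.7, 109 and 82.3 CPM. The darglitazone library was the highest of the 3 for each of these. SRXN1, another gene of redox defence, had 32.8, 34.2 and 36.5 CPM and lay slightly below DMSO with both drugs (-0.15 and -0.09). GCLM, the regulatory subunit of the enzyme that starts glutathione synthesis, was about level between the drugs at 22.6 and 22.2 CPM, against 15.8 CPM with DMSO. Its pioglitazone ratio was 0.52 (0.34 to 0.70), and 0.29 after thinning to the depth of the darglitazone library. HMOX1, which degrades haem, rested on 40, 20 and 21 counts, or 1.71, 2.13 and 0.694 CPM, with wide intervals of 0.50 to 2.14 and 0.66 to 2.57 around ratios of 1.18 and 1.48. NFE2L2 itself had 28.6, 18 and 25.1 CPM and was lower with darglitazone (-0.47), as was TFRC, the transferrin receptor that imports iron, at 165, 141 and 173 CPM (-0.29).

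The GCLM promoter is shown because GCLM was higher with both drugs and is a standard NRF2 target. It is the RefSeq promoter chr1:93909381-93909680 of GRCh38.p14 on the minus strand, with a match to TGACNNNGC, the core of the antioxidant response element, in capitals on the reverse strand.
GCLM: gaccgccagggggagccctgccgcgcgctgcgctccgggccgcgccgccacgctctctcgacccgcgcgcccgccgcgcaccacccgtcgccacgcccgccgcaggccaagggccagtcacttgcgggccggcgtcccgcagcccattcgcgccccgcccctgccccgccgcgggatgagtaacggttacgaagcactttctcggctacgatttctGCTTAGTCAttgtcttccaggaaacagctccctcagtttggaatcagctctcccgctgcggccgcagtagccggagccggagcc

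This match began at -34 from the start. The same core occurred in 13.3% of all RefSeq promoters, was found in both listed TXNRD1 windows, and was not found in those of NQO1 and FTL. Sites outside these windows were not searched.

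Cell division genes were lower with darglitazone. Of 36 genes of G2 and mitosis 33 lay below 0 with darglitazone (median -0.18) and 19 with pioglitazone (median 0.00). MKI67, the proliferation antigen Ki-67, had 298 CPM with pioglitazone, 235 CPM with darglitazone and 350 CPM with DMSO. Its ratios were -0.23 (-0.28 to -0.19) with pioglitazone and -0.57 (-0.64 to -0.51) with darglitazone. KIF20A, a kinesin of cytokinesis, had 91.8, 73.3 and 96.4 CPM, CENPE, a kinetochore motor, 47.2, 36.8 and 48.9 CPM, and CDC20, which triggers anaphase, 195, 170 and 206 CPM. No member was past 1.5-fold. In bulk RNA, fewer cells in division and less of these RNAs per cell cannot be told apart. Genes of G1/S and DNA replication had medians of -0.06 and -0.08, with 28 and 32 of 42 below 0, and TYMS, thymidylate synthase, was low in both drug libraries at 28.3, 27.1 and 39.3 CPM. Replication-dependent histones lay below 0 for 42 of 44 members with pioglitazone and 40 of 44 with darglitazone, with medians of -0.09 and -0.14. Their near-identical copies share reads, so single histone genes are uncertain. MYC had 652, 710 and 637 CPM.

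Of 11 measured primary granule genes 1, MPO, was past 1.5-fold, with darglitazone only. MPO, the myeloperoxidase of primary granules (chromosome 17, 58269856 to 58280935, minus strand), had 61.1 CPM with pioglitazone, 30.1 CPM with darglitazone and 64.7 CPM with DMSO. The darglitazone library alone stood apart, at a ratio of -1.10 (-1.29 to -0.92), against -0.08 (-0.18 to 0.02) with pioglitazone. CTSG, cathepsin G of the same granules, had 848, 717 and 951 CPM, but the elastase gene ELANE had 534, 559 and 565 CPM and AZU1, azurocidin, 578, 588 and 660 CPM. Over 11 granule genes the medians were -0.08 and -0.15, with 9 and 10 below 0. Secreted and monocytic genes included LYZ, lysozyme, at 198, 156 and 212 CPM, S100A9, a calprotectin subunit, at 17.1, 12.2 and 18.3 CPM, and, named after its values were seen, CHI3L1, a chitinase-like protein, at 88.5, 55.8 and 96.6 CPM. The monocyte and macrophage list as a whole had medians of -0.01 and -0.02 over 16 genes. CD38, a surface antigen that retinoids induce in myeloid cells, had 23.3, 29.2 and 22.4 CPM, CD33 had 51.3, 59.2 and 49.7 CPM, and FLT3 had 295, 307 and 262 CPM.

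Genes of the leukaemic programme stayed near their DMSO level. The HOXA cluster with MEIS1 and PBX3, which the KMT2A fusion maintains, had medians of 0.02 and 0.03 over 10 genes, with HOXA9 at 33.1, 36.4 and 35.1 CPM and MEIS1 at 50.2, 51.3 and 42.8 CPM. MLLT3, the fusion partner gene, had 8.51, 11.4 and 12.8 CPM and was past 1.5-fold with pioglitazone (-0.59, interval -0.85 to -0.34). In the STAT5 axis STAT5A had 63.6, 73.6 and 62.0 CPM, STAT5B 69.6, 77.5 and 73.2 CPM and CITED2, a transcriptional coregulator of quiescence, 248, 229 and 255 CPM. Other genes of this axis differed. Of the feedback genes, CISH had 20, 14.6 and 24.3 CPM (-0.28 and -0.73) and SOCS3 had 4.70, 5.65 and 7.80 CPM (-0.72 and -0.46). OSM, the cytokine oncostatin M, had 9.41, 7.79 and 5.49 CPM (0.77 and 0.50). BCL2, the target of venetoclax, had 86.0, 84.8 and 83.5 CPM, and MCL1 had 145, 140 and 160 CPM.

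Stress and inflammatory lists had medians near 0. The integrated stress response list had medians of -0.04 and -0.08 over 38 genes, with none past 1.5-fold. ASNS, asparagine synthetase, had 42.7, 43.6 and 39.0 CPM, DDIT3, the stress factor CHOP, 20.4, 19.5 and 18.8 CPM, and SLC7A11, the cystine importer, 26.9, 20.5 and 27.9 CPM. The endoplasmic reticulum chaperone list had medians of -0.06 with pioglitazone (15 of 24 below 0) and -0.08 with darglitazone (19 of 24 below 0). Of its genes HSPA5, the chaperone BiP, had 70.7, 59.2 and 83.7 CPM and HERPUD1, of protein degradation there, 30, 21 and 35.5 CPM, lower past 1.5-fold with darglitazone (-0.75, interval -0.98 to -0.54). The NF-kB list had medians of 0.01 and 0.02, and the inflammatory cytokine TNF had 98.9, 87.6 and 70.3 CPM, higher in both drug libraries. EGR1, an immediate early factor, had 5.30, 3.41 and 6.38 CPM. The p53 target list had medians of 0.01 and -0.11.

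Mitochondrially encoded mRNAs stood higher with pioglitazone. Of 12 such genes 11 lay above 0 with pioglitazone (median 0.33) and 9 with darglitazone (median 0.09). MT-CO1, a subunit of cytochrome c oxidase, had 1240, 1112 and 977 CPM, and MT-ND4, of complex I, 413, 337 and 284 CPM. MT-ND2, also of complex I, went the other way at 52.6, 40.2 and 54.0 CPM. Its ratios were -0.04 with pioglitazone and -0.43 (-0.59 to -0.26) with darglitazone. The share of counts in mitochondrial ribosomal RNA was 8.04% with pioglitazone, 7.76% with darglitazone and 7.25% with DMSO, and its part in these ratios was not tested. The 52 nuclear genes of the respiratory chain had medians of -0.06 and -0.02. Cytosolic ribosomal protein genes had a median of -0.04 with pioglitazone and 0.05 with darglitazone, with 24 and 58 of 76 above 0. Several small structured RNAs, named after their values were seen, were lower with pioglitazone: 7SK, which holds back transcription elongation, had 15, 42.7 and 28.3 CPM, and the spliceosomal U1 gene RNU1-1 192, 340 and 301 CPM. The 5.8S ribosomal RNA gene RNA5-8SN2 had 147, 14 and 17 CPM. Such RNAs have near-identical copies that share reads, so their counts are uncertain.

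Among protein-coding genes with a symbol and a mean of at least 5 CPM, TBC1D30 had the lowest darglitazone ratio. TBC1D30, a GTPase-activating protein for Rab proteins (chromosome 12, 64780516 to 64881032, plus strand), had 12.5 CPM with pioglitazone, 8.43 CPM with darglitazone and 33.5 CPM with DMSO. Both drug libraries lay far below DMSO, with ratios of -1.41 (-1.61 to -1.23) and -1.98 (-2.34 to -1.66). With pioglitazone TRPS1, a GATA-type repressor, had 4.11 CPM, against 11.1 CPM with DMSO, and KLF15, a Krüppel-like factor of energy metabolism, 20.1 CPM against 34.1 CPM. In the darglitazone library these stood at 9.71 and 29 CPM. With darglitazone RASD1, a steroid-induced Ras relative, had 2.99 CPM, against 9.06 CPM with DMSO. GPR84, a receptor for medium-chain fatty acids, had 4.69 CPM against 8.96 CPM, and IL21R, a cytokine receptor, 5.55 CPM against 11.0 CPM. Pioglitazone left these at 7.53, 9.58 and 11.8 CPM. Higher with darglitazone were CTSL, the lysosomal protease cathepsin L, with 15 CPM against 7.80 CPM with DMSO, CD180, a Toll-like surface receptor, with 9.28 against 4.59 CPM, and PTPN22, a phosphatase of immune signalling, with 14.1 against 7.57 CPM. KLF15, GPR84, IL21R, CTSL, CD180 and PTPN22 were named after their values were seen.

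Many of the largest ratios belong to genes that share exons or copies with others. Of all 10222 genes 11.4% overlap exons of another coding gene on the same strand, against 23.9% of genes past 1.5-fold with pioglitazone and 22.4% with darglitazone. BLOC1S5-TXNDC5, a readthrough gene, had 30.2, 46.4 and 11.8 CPM with pioglitazone, darglitazone and DMSO, but its sum with TXNDC5 and BLOC1S5 was 300, 319 and 297 CPM. ZNG1C and ZNG1F, copies of one gene, had pioglitazone ratios of -1.21 and 1.99, while the 5 copies summed to 153, 139 and 145 CPM. ENSG00000285238, a model that overlaps CHD4 and NOP2, had 16.9 and 7.15 CPM with the drugs and no count with DMSO. Ratios of such genes are uncertain, since the estimated counts can shift between overlapping models.

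Set directly against each other, the drugs differed past 1.5-fold in 233 genes (2.28%), 126 higher with darglitazone (1.23%) and 107 lower (1.05%). This ratio does not use the DMSO library. MPO (log2 ratio -1.02), IL21R (-1.07), GPR84 (-1.01) and STARD4 (-0.77) were lower with darglitazone. CASP9, the initiator caspase of the mitochondrial pathway, was higher with darglitazone at 10.9 CPM, against 5.05 CPM with pioglitazone (1.09), with DMSO between at 8.16 CPM. PELI1, a ubiquitin ligase of innate signalling, had 7.04 against 3.34 CPM (1.05). CASP9 and PELI1 were named after their values were seen. By list, the median was -0.21 for G2 and mitosis (34 of 36 below 0), -0.24 for mitochondrially encoded mRNAs (12 of 12 below 0) and -0.13 for cholesterol synthesis (18 of 23 below 0), and it was 0.08 for ribosomal proteins (72 of 76 above 0) and 0.10 for PPAR targets (15 of 24 above 0). MSMO1 and GCLM differed by less than counting error, with intervals that span 0. With 1 library per drug none of these differences could be tested, and the change in structure cannot be told apart from the culture.

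MOLM-14 had the smallest share of genes past 1.5-fold of the 4 lines with each drug. With pioglitazone it was 1.39%, against 12.5% in MV4-11, 15% in KG-1a and 34.6% in OCI-AML3. With darglitazone it was 2.48%, against 5.93% in MV4-11, 12.4% in KG-1a and 19.8% in OCI-AML3. With 1 line set against 3, an exact one-sided permutation test cannot give a p below 0.25, so this order is a description. Library quality differed between the lines: the OCI-AML3 pioglitazone library had 1.1 M counts. In the KG-1a pioglitazone library 23.616% of the counts lay in ribosomal DNA entries that share a name prefix, against 0.062% in that of MOLM-14. After thinning all libraries to 4.77 M counts, with the OCI-AML3 pioglitazone library left out, MOLM-14 was again lowest, at 3.89% against 13.3% in MV4-11 and 16.5% in KG-1a with pioglitazone. With darglitazone it was 4.97% against 8.14% in MV4-11, 12.8% in KG-1a and 22.2% in OCI-AML3. The part of the ribosomal share in these values was not tested.

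**Figure D4:**
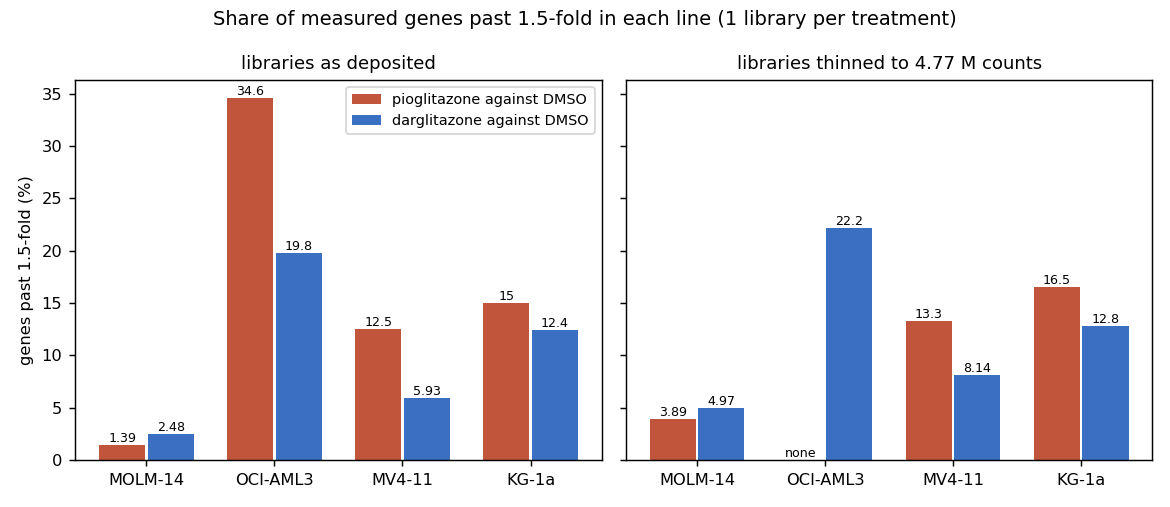
Percentage of measured genes past 1.5-fold for each drug against DMSO in MOLM-14 and the other lines, with the libraries as deposited (left) and thinned to 4.77 M counts (right); each bar compares 1 library with 1 library. MOLM-14 has the lowest bar for each drug in both panels; the OCI-AML3 pioglitazone library was too shallow to be thinned.

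By list, the sterol median with pioglitazone was 0.21 in MOLM-14, against 0.70 in KG-1a, 1.08 in MV4-11 and 0.50 in OCI-AML3. The integrated stress response median was -0.04 in MOLM-14, against 0.17 in KG-1a, 0.54 in MV4-11 and 0.62 in OCI-AML3. With darglitazone the G2 and mitosis median was -0.18 in MOLM-14, against -0.11 in KG-1a, -0.32 in MV4-11 and -0.94 in OCI-AML3. TXNIP was lower with pioglitazone in each line, with a log2 ratio of -0.59 in MOLM-14, -1.57 in KG-1a, -1.0 in MV4-11 and -0.94 in OCI-AML3. Its darglitazone ratio was -0.85 in MOLM-14, -0.24 in KG-1a, 0.20 in MV4-11 and 0.27 in OCI-AML3. FTL was higher with both drugs in each line, with ratios of 0.16 and 0.43 in MOLM-14, 0.11 and 0.42 in KG-1a, 0.64 and 0.62 in MV4-11 and 0.34 and 0.58 in OCI-AML3.

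The difference between MOLM-14 and the mean of the other lines, in their mean response to both drugs, was tested per gene with edgeR's quasi-likelihood test on all 12 libraries. It called 0 of 15424 genes (0.0%), with 233 at an unadjusted p under 0.05, 83 higher and 150 lower in MOLM-14, fewer than the 771 that chance would give. DESeq2 called 0 with 257 at an unadjusted p under 0.05, and limma-voom 0 with 531, both also below 771. Among the smallest p-values were CYP1B1, a cytochrome P450 induced through the aryl hydrocarbon receptor, with a difference of -1.58 (SE 0.31, adjusted p 1.0), and SLC7A11, with -1.41 (SE 0.31, adjusted p 1.0). METRNL, a secreted hormone-like protein, had -1.66 (SE 0.40, adjusted p 1.0). CYP1B1 had a mean of 4.48 CPM in MOLM-14, below the level of 5 CPM used for counting genes. Its ratios there were -0.70 (-1.11 to -0.34) with pioglitazone and -0.57 (-1.14 to -0.07) with darglitazone. In the same order they were 0.54 and 0.09 in KG-1a, 0.27 and -0.28 in MV4-11 and 2.11 and 2.13 in OCI-AML3. TXNIP had a difference of -0.09 (SE 0.52) and SCD of -0.42 (SE 0.32) by the same edgeR fit, both with an adjusted p of 1.0. With no filter on low counts, the same edgeR test gave an adjusted p of 0.0375 for CYP1B1 and 0.0384 for SLC7A11. The interaction rests on 3 residual degrees of freedom. They come from how far the difference between the drugs varies over the lines, and no repeat culture enters. Without the pioglitazone libraries of KG-1a and OCI-AML3 edgeR called 11 genes, 4 higher and 7 lower in MOLM-14, among them AHNAK, a large scaffold protein, with a difference of -1.40 (SE 0.12, adjusted p 0.0073), but that fit has 1 residual degree of freedom.

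**Figure D5:**
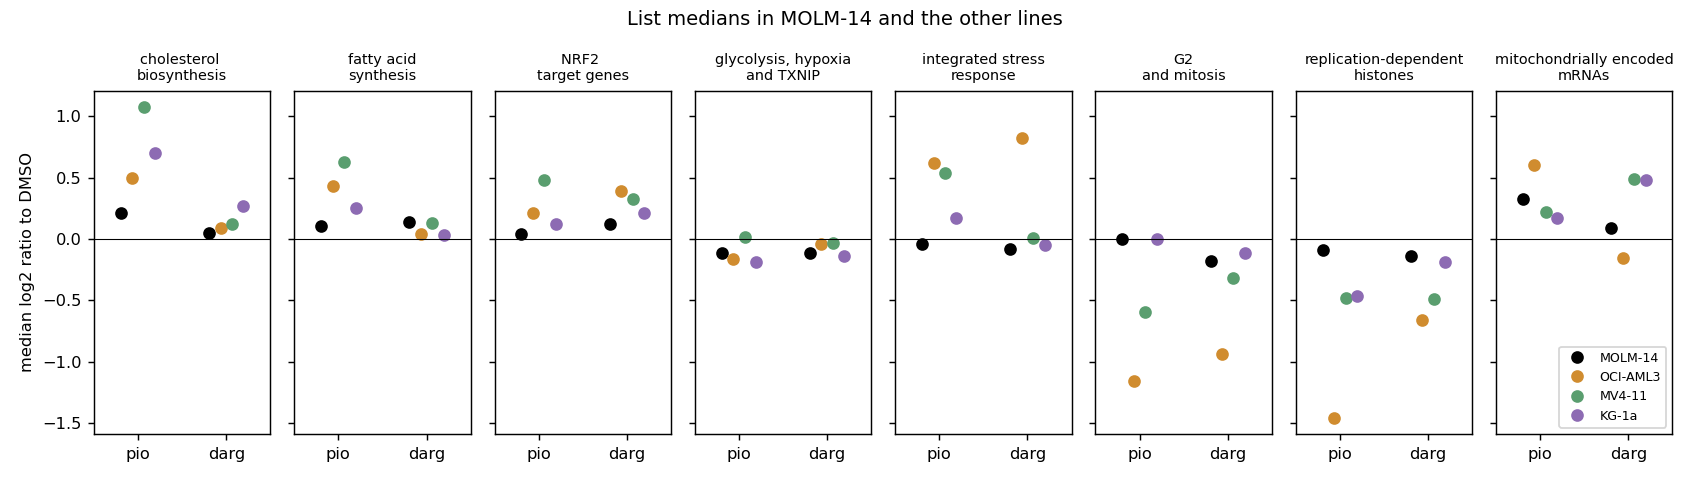
Median log2 ratio to DMSO of 8 gene lists, computed over the genes measured in MOLM-14, with pioglitazone and darglitazone in MOLM-14 (black) and the other lines; each point compares 1 library with 1 library. For the integrated stress response with pioglitazone MOLM-14 lies at -0.04, against 0.62 in OCI-AML3, and for cholesterol synthesis at 0.21, against 1.08 in MV4-11.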

How the data were processed

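The study sequenced 12 libraries, from 4 cell lines under 3 treatments. Per the labels' protocols, total RNA was depleted of ribosomal RNA and the libraries kept the strand. The authors deposited 1 table, in which each transcript has an estimated count per library that is not normalized. The submitters' processing notes name GRCh38 and, as tools, STAR, featureCounts, fastp, DESeq2 and FastQC. The tool that gave values that are not whole (89.8% of those above 0, at a tolerance of 1e-06) and the annotation are not given in the sources used here, and splitting reads between overlapping models can move single genes.

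Of 203027 transcripts 202941 (99.958%) matched GENCODE release 29. The estimated counts were summed per gene and rounded. Libraries were scaled by TMM in edgeR 4.0.16 (R 4.3.3) over 12 libraries, after filterByExpr had left 15424 genes (minimum count 10, minimum total 15, by line). Within MOLM-14, log2 ratios of scaled CPM used a prior count of 2, and a gene counted as past 1.5-fold at a mean of at least 5 CPM over the 3 MOLM-14 libraries. A prior count shrinks the ratios of low genes, but slightly at this level filter. With a prior of 0.5, 146 genes were past 1.5-fold with pioglitazone and 259 with darglitazone, against 142 and 254. Counting error widens the ratios of low genes, so those picked as past 1.5-fold can be overstated. Intervals are exact (Clopper-Pearson, 95%) on the counts. PCR duplicates are not marked, so intervals and floors of 3 counts cover counting error only.

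The test against the other lines used the quasi-likelihood fit of edgeR with robust settings and, as terms, a DMSO level and a mean drug response for each line plus 1 difference between the drugs shared by the lines, with Benjamini-Hochberg adjustment over all genes at 0.05. limma 3.58.1 and DESeq2 1.42.0 gave alternatives. Alternatives covered scaling, prior count, level filter, thinning, gene class and left-out lines. Named genes were the 12 largest ratios per direction for each drug and the 8 largest between the drugs among protein-coding genes whose interval excludes no change, up to 4 members of each list, 52 preset genes and 5 genes per direction with the smallest interaction p. Not all of them are printed. A further choice was made outside this rule, after the values were seen. It took the 12 largest ratios per direction and comparison among protein-coding genes with a symbol that overlap no other coding gene. KLF15, GPR84, IL21R, CTSL, CD180, PTPN22, CASP9 and PELI1 were named only in this way. Other genes printed as examples, such as SLC2A1, HK2, ELANE and MT-CO1, were picked outside both choices. So were HSDL2, GPCPD1, KDM3A, CHI3L1 and the small structured RNAs, which were named after their values were seen. The members, the 38 gene lists and the preset genes were chosen with earlier results of these data known.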

Additional observations from a re-analysis of the deposited data

Results flagged for a closer look

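LDHA, the lactate dehydrogenase A gene, had a value in MOLM-14 at some distance from close values in the other lines with pioglitazone. Its log2 ratio to DMSO was -0.14 in MOLM-14, against -0.23 in each of KG-1a, MV4-11 and OCI-AML3. The gap from MOLM-14 to the nearest line took a share of 0.94 of the whole range of the 4 values, past the 95% limit for 4 samples. In total 154 list medians and gene ratios were compared in this way over the 4 lines, and chance alone flags about 1 in 20, so this 1 is fewer than chance would give. The OCI-AML3 value rests on a pioglitazone library of 1.1 M counts.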

How the results depend on the processing

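The number of genes past 1.5-fold depended on the level filter. At a mean of at least 1 CPM it was 842 with pioglitazone, 1128 with darglitazone and 1156 between the drugs. At 20 CPM or more it was 15, 30 and 26, and with no filter 8555, 9864 and 9436. Thinning to the depth of the darglitazone library gave 256 with pioglitazone. Other scalings, prior counts of 0.5 and 10, protein-coding genes only and, as a choice made after seeing the data, leaving out genes that overlap another coding gene kept each count within 1.5 times, as did thinning for darglitazone and between the drugs. The test against the other lines called 9 genes with no filter on low counts, CYP1B1 and SLC7A11 lower in MOLM-14 among them, and 11 when the pioglitazone libraries of KG-1a and OCI-AML3 were left out, AHNAK, MMP14 and PLEC lower in MOLM-14 among them. Leaving out each other line in turn gave 0 to 3 genes, the 3 being CAB39, PRRG3 and SDC3, higher in MOLM-14 without OCI-AML3. Leaving out the KG-1a darglitazone library, also chosen after seeing the data, gave 0. Of list medians 1077 values stayed within counting error and 3 moved, and of ratios of named genes 7003 stayed and 32 moved. The mitochondrial mRNA median with pioglitazone was 0.22 without overlapping genes. GCLM had 0.29 with pioglitazone after thinning. No ratio past 1.5-fold turned its sign. The cause of these shifts was not tested. No paired analysis was possible because replicates share no numbers: each line and treatment has 1 library. The test against the other lines fits a DMSO level for each line. Depth limits genes below 20 CPM most, in the darglitazone library above all.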
